A study of Mus musculus with 11 samples.

Results

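The genes described are 10 components of bone morphogenetic protein (BMP) signalling, listed by name with earlier results of these data known. They are the ligands Bmp2, Bmp4 and Bmp8b and the receptors Bmpr1a and Bmpr2. The others are the inhibitory SMADs Smad6 and Smad7 and the target genes Id1, Id2 and Id3. All 10 were found among the 37310 gene identifiers of the deposited tables. They were measured by bulk RNA sequencing in 11 libraries of organoids, which are small epithelial tissues grown in a gel from intestinal crypts. The late-passage group held passages 11, 12 and 13 of both animals (n = 6), and the early-passage group held passages 2, 3 and 4 of mouse_283 and passages 2 and 4 of mouse_285 (n = 5). Every library carried the Lgr5-EGFP-IRES-creERT2 allele, in which a green fluorescent protein and an inducible Cre are placed under the promoter of the crypt stem cell gene Lgr5, and no wild-type library was compared. The labels name no other genotype and no treatment beyond the culture itself, give small intestine epithelium as the source of every library, and describe mice of 4 and 24 months without tying an age to an animal. The organoids were kept in a commercial growth medium whose composition the labels do not give, so whether it contained a BMP ligand or inhibitor is not known from them. Libraries of an animal are passages of cultures from that animal, so p-values measure the spread between passages of 2 animals.

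In BMP signalling, secreted ligands bring together type I and type II serine/threonine kinase receptors, which phosphorylate SMAD1, SMAD5 and SMAD9 so that these enter the nucleus with SMAD4 and switch on target genes, among them the ID genes. SMAD6 and SMAD7 are themselves induced by the pathway and dampen it. In the intestine BMP activity is low at the crypt base, where antagonists from stromal cells protect the stem cells, and higher toward the villus tip, where it restrains proliferation and shapes the late enterocyte programme.

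The promoters of 7 of the 10 genes were matched in RefSeq sequence of build GRCm38.p6, as windows of 250 bases before and 50 bases after the start of the gene, 300 bases in all. Those of the ID and inhibitory SMAD genes that were matched are shown because these genes had the lowest p-values among the matched members. Capitals mark every match, on either strand, to 3 motifs bound by SMAD proteins: GGCGCC, a GC-rich element bound by SMAD1 and SMAD5; CAGAC, the SMAD box, which reads GTCTG on the opposite strand; and GTCTAGAC, a palindrome bound by SMAD3 and SMAD4. None of these motifs overlapped another in the windows shown.
Id3, chr4:136143572-136143871, plus strand: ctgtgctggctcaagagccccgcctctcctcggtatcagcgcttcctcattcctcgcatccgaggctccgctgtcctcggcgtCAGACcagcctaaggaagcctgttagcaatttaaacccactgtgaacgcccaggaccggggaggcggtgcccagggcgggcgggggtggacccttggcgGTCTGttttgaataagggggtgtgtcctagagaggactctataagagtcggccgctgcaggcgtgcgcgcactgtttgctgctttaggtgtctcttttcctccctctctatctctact
Id2, chr12:25096043-25096342, minus strand: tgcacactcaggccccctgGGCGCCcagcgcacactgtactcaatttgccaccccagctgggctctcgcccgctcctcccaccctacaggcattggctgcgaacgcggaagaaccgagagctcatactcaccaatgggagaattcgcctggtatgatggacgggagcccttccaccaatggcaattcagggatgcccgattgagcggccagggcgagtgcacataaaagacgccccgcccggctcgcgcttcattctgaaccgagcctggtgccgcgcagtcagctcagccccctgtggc
Smad6, chr9:64022010-64022309, minus strand: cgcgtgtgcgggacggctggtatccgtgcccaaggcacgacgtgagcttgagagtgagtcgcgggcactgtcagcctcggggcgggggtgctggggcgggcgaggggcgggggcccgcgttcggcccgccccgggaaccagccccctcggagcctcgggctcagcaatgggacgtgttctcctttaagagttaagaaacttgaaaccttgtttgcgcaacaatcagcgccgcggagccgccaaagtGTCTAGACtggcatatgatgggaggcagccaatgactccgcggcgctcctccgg
The Id3 window held 2 matches to CAGAC, starting at positions -167 and -68 from the gene's start, the second on the opposite strand. The Id2 window held 1 GGCGCC at position -231 and the Smad6 window 1 GTCTAGAC at position -4. Of 27025 promoters of the same length, 49.7% held CAGAC on either strand, 12% held GGCGCC and 0.211% held GTCTAGAC. A match of letters describes the sequence and was not measured as a bound site.

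The libraries held 15114132 to 28949911 reads in genes, and a limit of 3 counts corresponded to 0.104 to 0.198 CPM, the counts of a gene scaled to the size of the library. Markers of intestinal epithelium summed to 7016 to 9819 CPM in late and 8123 to 16265 CPM in early libraries, and small-intestinal markers to 1417 to 2376 CPM in late and 1601 to 2215 CPM in early libraries, against 3.33 to 9.31 CPM in late and 3.13 to 8.38 CPM in early libraries for colon markers. Stromal markers summed to 9.82 to 18.2 CPM in late and 12 to 18.9 CPM in early libraries, with Dcn, Lum and Thy1 at 0 in all 11 libraries. Immune markers, with Cd3g and Cd8a at 0, summed to 7.74 to 14 CPM in late and 10.2 to 23 CPM in early libraries, and endothelial markers, with Kdr and Emcn at 0, to 1.17 to 2.12 CPM in late and 1.47 to 2.6 CPM in early libraries. In passages 3 and 4 of mouse_283, both early, expression followed the GC content of genes, with slopes of 0.974 and 0.778 log2 units per 10 percentage points of GC against -0.407 to 0.199 in the other 9 libraries. Fold changes that moved by more than 1.5 times on leaving these 2 libraries out are given with and without them for the members and the named genes of the pathway. Passage 2 of mouse_283 had the largest share of reads that fell in no gene, 11.68%, against 3.773% to 6.638% in the other libraries. Whether this share bears on its values was not tested. No sequencing batch is named in the labels, and a batch that followed the stages cannot be told apart from passage.

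Id3 was the member that rose in late organoids, by 2.64-fold. Id1 and Id2 stood higher by 1.87-fold and 1.55-fold without passing the test, and Smad6, an inhibitor of the pathway, stood lower, at 0.426 of its early level, also without passing. Of the 9 members with enough reads to be tested, 1 was called at an adjusted p under 0.05, in edgeR's quasi-likelihood test with Benjamini-Hochberg adjustment over all 14172 genes tested, against 3.05% of all genes (0.706% higher and 2.34% lower in late). The median log2 fold change of the 9 was 0.32, beside -0.02 for all genes tested, with 5 of 9 above 0. DESeq2 called 4 members (Id1, Id2 and Id3 higher and Smad6 lower in late) against 9.49% of all genes, and the fit without a low-count filter 3 (Id1, Id3 and Smad6) against 7.74%. The fit without passages 3 and 4 of mouse_283 called 3 (Id1, Id2 and Id3) against 4.76%, and that with offsets for GC content and length 2 (Id1 and Id3) against 7.24%. Without passage 2 of mouse_283, which left passages 3 and 4 as the early libraries of that animal, 5 members (Id1, Id2, Id3 and Bmpr1a higher, Smad6 lower) were called against 34.7% of all genes. Before adjustment 4 of 9 members (Id1, Id2, Id3 and Smad6) had p under 0.05, as did 23.6% of all genes.

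**Figure D1:**
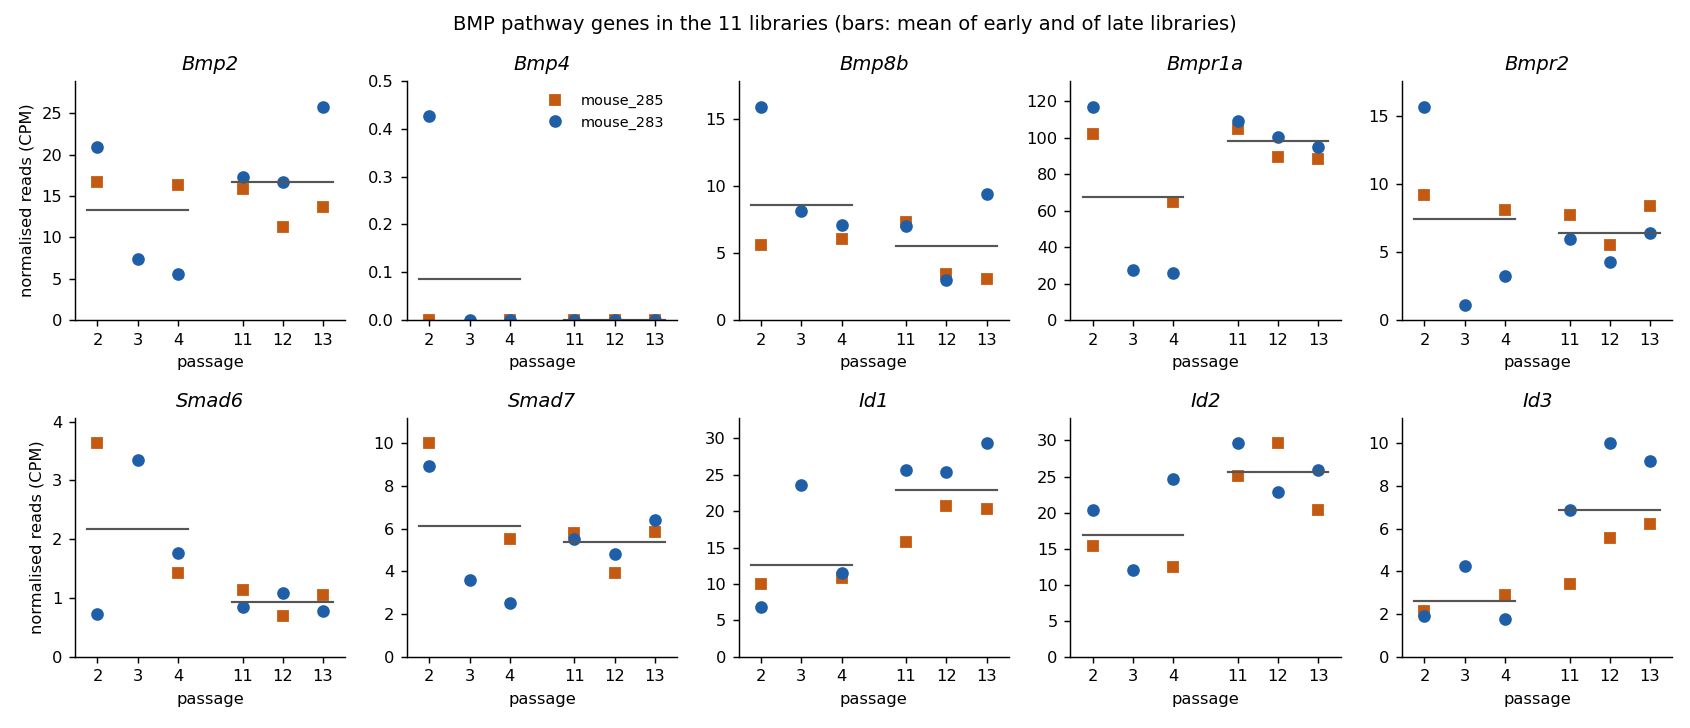
Normalised reads in CPM (y axis) of the 10 BMP pathway genes in each library, by passage (x axis), with squares for mouse_285, circles for mouse_283 and bars for the mean of the late and of the early libraries. Id3 and Id1 lie higher in late than in early libraries of the same animal, and Bmp4 has reads in passage 2 of mouse_283 only.

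Id3 encodes a helix-loop-helix protein without a DNA-binding region, which binds E proteins and keeps them from DNA. In mouse_285 it had 3.4, 5.55 and 6.2 CPM at passages 11, 12 and 13, against 2.15 and 2.91 CPM at passages 2 and 4. In mouse_283 it had 6.88, 10 and 9.16 CPM at passages 11, 12 and 13, against 1.89, 4.26 and 1.77 CPM at passages 2, 3 and 4. Every late library lay above every early library of the same animal, while passage 11 of mouse_285 lay below passage 3 of mouse_283, so the stages overlapped across animals. These values rest on 31 to 307 reads per library. With the animal in the model the log2 fold change was 1.40 (SE 0.31) with an adjusted p of 0.0298 in edgeR's quasi-likelihood test. The call was lost when any of 7 libraries was left out: passages 11, 12 and 13 of mouse_283 (adjusted p = 0.0629, 0.0849 and 0.0799), passages 12 and 13 of mouse_285 (0.0629 and 0.0701), and passages 2 and 4 of mouse_285 (0.0538 and 0.0501), with log2 fold changes of 1.24 to 1.61 over all 11 such fits.

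Id1, another ID family gene, is widely used as a readout of BMP activity. In mouse_285 it had 15.8, 20.7 and 20.3 CPM at passages 11, 12 and 13, against 10 and 10.8 CPM at passages 2 and 4. In mouse_283 it had 25.7, 25.3 and 29.3 CPM at passages 11, 12 and 13, against 6.77, 23.6 and 11.5 CPM at passages 2, 3 and 4. The late libraries were again the higher ones within each animal, and passage 3 of mouse_283 reached the level of the late libraries. The log2 fold change was 0.90 (SE 0.27, adjusted p = 0.0893 in edgeR's quasi-likelihood test). The change passed without passages 3 and 4 of mouse_283, at 1.25 (SE 0.22, adjusted p = 0.00608), and with offsets for GC content and length, at 1.22 (SE 0.16, adjusted p = 0.0012). When 1 library was left out, Id1 passed in 2 of 11 fits of the same test, with adjusted p up to 0.225 over the 11. These were without passage 3 of mouse_283, at 1.21 (adjusted p = 0.0144), and without its passage 2, at 0.73 (adjusted p = 0.023). In the fit without passage 2 of mouse_283, 34.7% of all genes were called.

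Id1 and Id3 were 2 of the 9 tested members whose late libraries all lay above the early ones within both animals, a pattern shown by 3.99% of all genes tested. No member showed the opposite pattern, which 5.44% of genes did. Across all 11 libraries no member separated the stages without overlap, in either direction, as 2.21% of genes did with late above early and 3.51% with late below early.

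**Figure D2:**
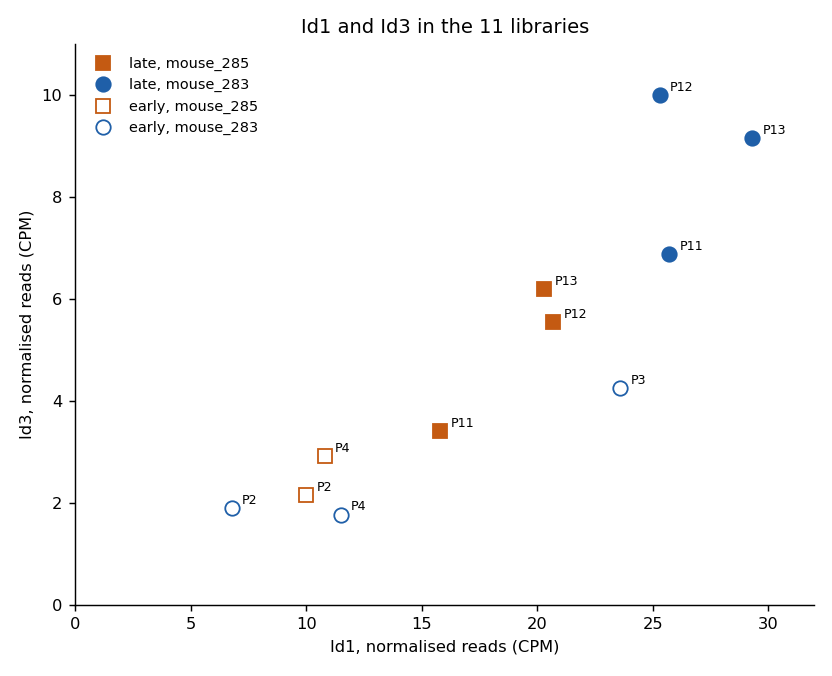
Id3 (y axis) against Id1 (x axis), both in normalised CPM, with 1 point per library labelled by passage, filled for late and open for early libraries, squares for mouse_285 and circles for mouse_283. The late libraries of mouse_283 lie highest for both genes and passage 3 of mouse_283 is the early library with the highest Id1, at 23.6 CPM.

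Id2, an ID family member that is also under other inputs in many tissues, ran from 20.4 to 29.6 CPM in late libraries with a median of 25.5 CPM. The early libraries had 20.4, 12 and 24.6 CPM at passages 2, 3 and 4 of mouse_283 and 15.3 and 12.4 CPM at passages 2 and 4 of mouse_285. The late libraries were the higher ones in mouse_285, and the stages overlapped in mouse_283. The log2 fold change was 0.63 (SE 0.21, adjusted p = 0.123 in edgeR's quasi-likelihood test). It was 0.66 (adjusted p = 0.0486) without passages 3 and 4 of mouse_283, 0.68 (adjusted p = 0.0327) without passage 2 of mouse_283, and 0.35 (adjusted p = 0.345) with the GC and length offsets. Summed over Id1, Id2 and Id3, the late libraries held 44.3, 55.9 and 46.9 CPM in mouse_285 and 62.2, 58.3 and 64.3 CPM in mouse_283, against 27.5 and 26.1 CPM in early libraries of mouse_285 and 29.1, 39.9 and 37.9 CPM in those of mouse_283. The summed level was higher in each of the 6 late libraries than in any early library. The sum was formed with the values of its parts known, so it is given without a test.

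Neither inhibitory SMAD was called. Smad6, which binds type I receptors and competes for SMAD1, ran from 0.686 to 1.13 CPM in late libraries with a median of 0.949 CPM. The early libraries had 0.732, 3.34 and 1.77 CPM at passages 2, 3 and 4 of mouse_283 and 3.63 and 1.43 CPM at passages 2 and 4 of mouse_285. Early libraries were the higher ones except passage 2 of mouse_283, which lay among the late libraries. With 11 to 64 reads per library, the log2 fold change was -1.23 (SE 0.39, adjusted p = 0.106 in edgeR's quasi-likelihood test). It was -0.82 (adjusted p = 0.16) with the GC and length offsets, -0.84 (adjusted p = 0.308) without passages 3 and 4 of mouse_283, and -1.43 (adjusted p = 0.016) without passage 2 of mouse_283.

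Smad7, which also inhibits TGF-beta receptors and recruits the SMURF ubiquitin ligases to them, ran from 3.93 to 6.42 CPM in late libraries with a median of 5.65 CPM. It had 8.96, 3.61 and 2.53 CPM at passages 2, 3 and 4 of mouse_283 and 10 and 5.51 CPM at passages 2 and 4 of mouse_285. Both passage 2 libraries were highest and passages 3 and 4 of mouse_283 lowest of the 11. The log2 fold change was -0.18, with an approximate 95% interval from the SE of -0.83 to 0.47 (adjusted p = 0.74 in edgeR's quasi-likelihood test). It was -0.61 (SE 0.23, adjusted p = 0.151) without passages 3 and 4 of mouse_283, -0.02 (SE 0.36) with the GC and length offsets, and turned to 0.10 (SE 0.32) without passage 2 of mouse_283.

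**Figure D3:**
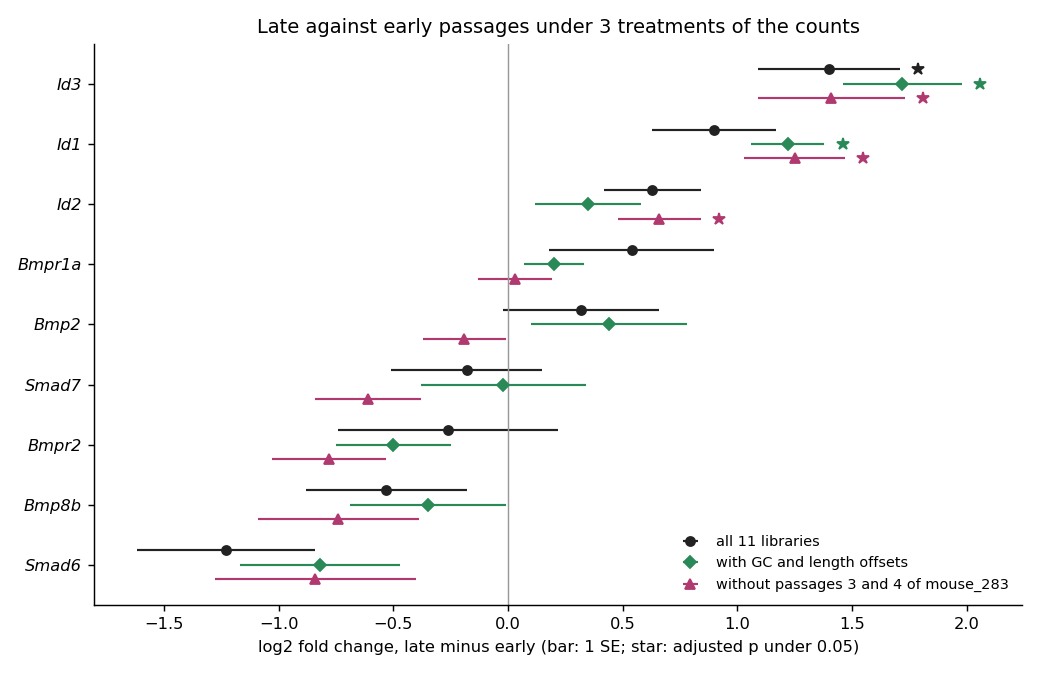
Log2 fold change, late minus early (x axis), of the 9 tested members (y axis), with bars of 1 SE, for all 11 libraries (circles), with GC and length offsets (diamonds) and without passages 3 and 4 of mouse_283 (triangles); stars mark an adjusted p under 0.05. Id3 lies between 1.40 and 1.72 and is starred in all 3 fits, Id1 in the 2 fits other than that on all 11 libraries.

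Neither receptor was called. Bmpr1a, the type I receptor through which BMP signals reach the intestinal epithelium, ran from 88.2 to 109 CPM in late libraries with a median of 97.8 CPM. It had 117, 27.6 and 25.7 CPM at passages 2, 3 and 4 of mouse_283 and 102 and 64.6 CPM at passages 2 and 4 of mouse_285. The early spread came from passages 3 and 4 of mouse_283, which were lowest. Its log2 fold change was 0.54 (SE 0.36, adjusted p = 0.338 in edgeR's quasi-likelihood test), but 0.03 (SE 0.16) without those 2 libraries and 0.20 (SE 0.13) with the offsets. Without passage 2 of mouse_283 it was 1.00 (adjusted p = 0.0281). An opposite-strand gene, Gm17110, shares exon sequence with Bmpr1a and had 41 reads over all libraries.

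Bmpr2, the type II receptor that phosphorylates type I receptors after ligand binding, ran from 4.27 to 8.38 CPM in late libraries with a median of 6.2 CPM. It had 15.7, 1.13 and 3.21 CPM at passages 2, 3 and 4 of mouse_283 and 9.18 and 8.07 CPM at passages 2 and 4 of mouse_285. The early libraries of mouse_283 held both its highest and its lowest value. The log2 fold change was -0.26 (SE 0.48, adjusted p = 0.739 in edgeR's quasi-likelihood test), -0.78 (SE 0.25, adjusted p = 0.103) without passages 3 and 4 of mouse_283, and turned to 0.47 (adjusted p = 0.309) without passage 2 of mouse_283.

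Both receptors are GC-poor, with 41.3% GC in Bmpr1a and 41% in Bmpr2 against a median of 50.1% over tested genes. In passages 3 and 4 of mouse_283 they lay below the other 3 early libraries, with mean differences of -1.78 log2 units for Bmpr1a and -2.40 for Bmpr2. Bmp2 and Smad7, with 52.5% and 56.9% GC, also lay below them in both libraries, with differences of -1.47 for Bmp2 and -1.36 for Smad7. Id1 (54.7% GC) lay above them in both, by 0.86, and the remaining 4 tested members differed by -0.10 to 0.60 log2 units, without lying below or above the other early libraries in both.

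Bmp2, a ligand made in differentiated intestinal epithelium as well as in stroma, ran from 11.2 to 25.8 CPM in late libraries with a median of 16.3 CPM. It had 20.9, 7.33 and 5.59 CPM at passages 2, 3 and 4 of mouse_283 and 16.7 and 16.3 CPM at passages 2 and 4 of mouse_285. The late libraries were below the early ones in mouse_285, while the stages overlapped in mouse_283. The log2 fold change was 0.32 (SE 0.34, adjusted p = 0.546 in edgeR's quasi-likelihood test) and turned to -0.19 (SE 0.18, adjusted p = 0.586) without passages 3 and 4 of mouse_283.

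Bmp8b, a ligand known in mouse from germ cells and brown fat, ran from 2.97 to 9.37 CPM in late libraries with a median of 5.2 CPM. It had 15.9, 8.09 and 7.11 CPM at passages 2, 3 and 4 of mouse_283 and 5.61 and 6.02 CPM at passages 2 and 4 of mouse_285. Passage 2 of mouse_283 stood above all others, and the log2 fold change was -0.53 (SE 0.35, adjusted p = 0.334 in edgeR's quasi-likelihood test), and -0.29 (SE 0.32, adjusted p = 0.492) without that library. These counts are uncertain. Bmp8b shares exon sequence with Ppie, on the opposite strand, which had 27.6 to 37.1 CPM in late and 15.7 to 66.7 CPM in early libraries, and has a close paralog, Bmp8a, at 0.421 to 1.29 CPM in late and 0.27 to 1.13 CPM in early libraries.

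Bmp4, a ligand of the intestinal mesenchyme, had 7 reads (0.427 CPM) in passage 2 of mouse_283 and none in the other 10 libraries, and did not pass the filter on low counts. A count of 0 allows up to 0.198 CPM in the shallowest library, for counting error only. The same library had the highest reads of 3 stromal collagen genes, with 14 for Col1a1, 7 for Col1a2 and 4 for Col3a1, the last of which had none elsewhere. Dcn, Lum, Thy1 and Pdgfra had no read in it. The part of stromal cells in this value was not tested, and in bulk samples fewer cells of a type and less RNA per cell cannot be told apart.

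Per kilobase of transcript and over all 11 libraries, mean levels were 15.7 ± 6.52 CPM per kb for Id1, 14.1 ± 5.27 for Bmpr1a and 11 ± 3.17 for Id2 (SD, n = 11). Bmp2 followed at 4.28 ± 1.61, Id3 at 3.85 ± 2.26 and Bmp8b at 2.34 ± 1.24 CPM per kb. The lowest were Smad7 at 1.34 ± 0.514, Bmpr2 at 0.533 ± 0.294, Smad6 at 0.504 ± 0.348 and Bmp4 at 0.0188 ± 0.0624 CPM per kb. The order differed between the stages. Id3 lay above Bmp2 in late libraries, at 5.37 ± 1.9 against 4.71 ± 1.39 CPM per kb, and below Bmp2 and Bmp8b in early libraries, at 2.03 ± 0.806 against 3.76 ± 1.85 and 2.91 ± 1.44 CPM per kb, and Bmpr1a lay above Id1 in early libraries, at 11.3 ± 7.01 against 10.8 ± 5.54 CPM per kb. Neighbours in the order over all libraries differed by less than the larger SD of the pair, except Id2 against Bmp2, Smad7 against Bmpr2 and Smad6 against Bmp4.

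Between the animals, mouse_285 and mouse_283, 0 of 9 members were called with stage in the model in edgeR's quasi-likelihood test, against 0.0776% of all genes. Before adjustment 0 members had p under 0.05, against 5.15% of all genes. DESeq2 called 0 members and 126 of all genes. The largest differences were a log2 fold change of -0.63 (SE 0.35) for Bmp8b, at 5.08 ± 1.8 CPM in mouse_285 (n = 5) and 8.4 ± 4.26 CPM in mouse_283 (n = 6), and -0.47 (SE 0.30) for Id3, at 4.04 ± 1.75 CPM in mouse_285 and 5.66 ± 3.58 CPM in mouse_283. This compares 2 animals, since no age is tied to either.

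The change with passage was also set side by side within the animals. For Id3 the log2 fold change was 0.99 (SE 0.46, adjusted p = 0.935) in mouse_285 and 1.72 (SE 0.40, adjusted p = 0.0644) in mouse_283, in the edgeR model with the interaction. For Id1 it was 0.86 (SE 0.43) in mouse_285 and 0.94 (SE 0.37) in mouse_283, for Id2 0.86 (SE 0.33) in mouse_285 and 0.46 (SE 0.29) in mouse_283, and for Smad6 -1.38 (SE 0.60) in mouse_285 and -1.11 (SE 0.55) in mouse_283. All 4 genes kept their direction in both animals. Bmp2, at -0.28 (SE 0.48) in mouse_285 and 0.82 (SE 0.43) in mouse_283, and Smad7, at -0.58 (SE 0.49) in mouse_285 and 0.16 (SE 0.44) in mouse_283, had opposite signs.

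The edgeR model called 0 of 9 members in mouse_285, against 0.00% of all genes, and 0 of 9 in mouse_283, against 1.42%. Before adjustment 2 members in mouse_285 (Id2 and Smad6) and 2 in mouse_283 (Id1 and Id3) had p under 0.05. So did 5.38% of all genes in mouse_285 and 18.8% in mouse_283. DESeq2 called 0 members in mouse_285, where it called 72 of all genes, and 1, Id3, in mouse_283, where it called 736. The test of the difference between the animals' changes called 0 of 9 members, against 0.00% of all genes. Its unadjusted p was under 0.05 for 0 members, against 2.13% of all genes, and DESeq2 called 0 members and 16 of all genes. The approximate 95% interval of that difference ran from -1.89 to 0.43 log2 units for Id3 and from -2.36 to 0.15 for Bmp2.

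**Figure D4:**
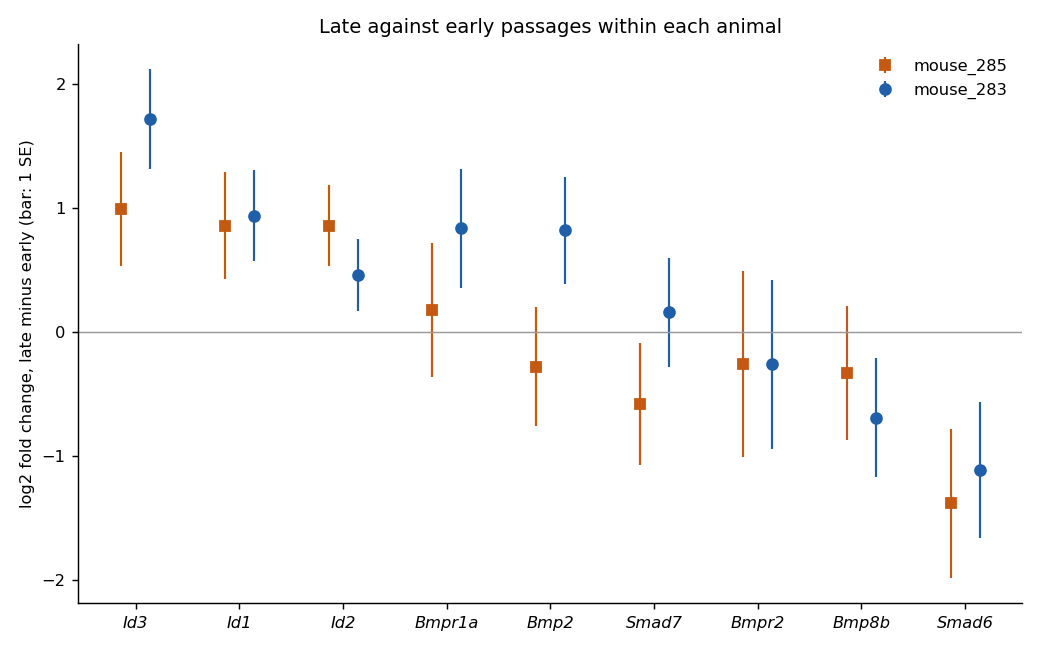
Log2 fold change, late minus early (y axis), of the 9 tested members (x axis) within mouse_285 (squares) and mouse_283 (circles), with bars of 1 SE from the model with the interaction. Id3, Id1 and Id2 lie above 0 and Smad6 below 0 in both animals, and Bmp2 and Smad7 have opposite signs.

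Around the members, the lists of other ligands, receptors, signalling SMADs, antagonists, intracellular regulators and direct targets gave no call. This was in edgeR's quasi-likelihood test on all 11 libraries. Before adjustment 2 of 6 receptors, 1 of 6 antagonists, 1 of 8 regulators and 1 of 4 targets had p under 0.05, against 23.6% of all genes. DESeq2 called 1 receptor and 2 antagonists, against 9.49% of all genes. The median log2 fold changes of these lists were -0.14 for ligands, -0.34 for receptors, 0.14 for SMADs, -0.01 for antagonists, 0.17 for regulators and 0.16 for targets, beside -0.02 for all genes tested. Of the other ligands 4 were tested. Bmp7, a ligand able to pair with Bmp2, averaged 61.4 ± 8.25 CPM in late libraries (SD, n = 6) and 68.9 ± 26.8 CPM in early libraries (SD, n = 5), and Bmp3, a ligand that opposes BMP signalling through type II receptors, 23.1 ± 4.23 CPM in late and 25.4 ± 6.57 CPM in early libraries. Bmp5, Bmp10, Bmp15, Gdf2, Gdf5 and Gdf6 had no read in any library. The 6 other receptors and co-receptors tested had log2 fold changes of, among others, -0.56 for Acvr2b and 0.40 for Acvr2a, both type II receptors, and -0.30 for the type I receptor Acvrl1. Without passages 3 and 4 of mouse_283 Acvr2a stood at -0.15 and Acvrl1 at -0.20. The 3 signalling SMADs tested had log2 fold changes of 0.31 for Smad5, 0.14 for Smad1 and 0.12 for their shared partner Smad4, which averaged 86.2 ± 9.33 CPM in late and 78.7 ± 30.4 CPM in early libraries. Without those 2 libraries the values were 0.07 for Smad5, -0.01 for Smad1 and -0.18 for Smad4, 0.30 for Bmp7 and -0.32 for Bmp3.

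Of 15 antagonists in the list, 6 were tested. Nog and Grem1, secreted antagonists of the crypt base, had 1 read each over all libraries. Nbl1, a secreted antagonist of the DAN family, averaged 3.48 ± 1.19 CPM in late libraries (n = 6) and 7.38 ± 3.75 CPM in early libraries (n = 5), with a log2 fold change of -1.06 (SE 0.28, adjusted p = 0.0669 in edgeR's quasi-likelihood test). Twsg1, which binds BMP ligands outside the cell, had a log2 fold change of 0.59 (SE 0.38) and Bambi, a decoy receptor, -0.08 (SE 0.30). Of the intracellular regulators 8 were tested. Smurf1 and Smurf2, the ubiquitin ligases that remove SMADs and receptors, had log2 fold changes of -0.46 (SE 0.18) and 0.54 (SE 0.28), and Tob1, which restrains SMAD activity, 0.45 (SE 0.29). The 4 other direct targets tested included Tbx3 at 0.59 (SE 0.23) and Atoh8 at 0.34 (SE 0.70) on the log2 scale. Without passages 3 and 4 of mouse_283 the log2 fold changes were 0.08 for Twsg1, 0.20 for Bambi, 0.16 for Smurf2, 0.02 for Tob1, 0.26 for Tbx3 and 1.43 for Atoh8, none of them called. That fit called 1 of the 8 tested regulators, lower in late, against 4.76% of all genes. With the GC and length offsets the log2 fold change of Nbl1 was -0.60 (adjusted p = 0.0748). Without passage 2 of mouse_283, where 34.7% of all genes were called, Nbl1 (-1.23, adjusted p = 0.0111), Twsg1 (1.09, adjusted p = 0.0246), Smurf1 (-0.51, adjusted p = 0.0422), Smurf2 (0.87, adjusted p = 0.0186) and Smad5 (0.49, adjusted p = 0.0356) were called in the same edgeR test.

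Of the 7 helix-loop-helix partners of ID proteins, all tested, 1 was called, against 3.05% of all genes, and their median log2 fold change was 0.57. Neurod1, which acts in enteroendocrine differentiation, rose in late libraries, to 5.04 ± 1.17 CPM (n = 6) against 1.89 ± 0.887 CPM in early libraries (n = 5), with a log2 fold change of 1.42 (SE 0.31, adjusted p = 0.0302 in edgeR's quasi-likelihood test). The E proteins that IDs bind directly were not called, with a log2 fold change of -0.38 (SE 0.20) for Tcf3, at 174 ± 11.9 CPM in late and 226 ± 65.6 CPM in early libraries, and 0.61 (SE 0.32) for Tcf12. These were -0.04 for Tcf3 and 0.15 for Tcf12 without passages 3 and 4 of mouse_283, and without passage 2 of mouse_283 both were called, at -0.50 (adjusted p = 0.0268) for Tcf3 and 1.01 (adjusted p = 0.0183) for Tcf12. The fit without passages 3 and 4 of mouse_283 called 3 of the 7 partners, against 4.76% of all genes. They were Neurod1, Ascl2 and Neurog3, all higher in late. Without passage 4 of mouse_283 alone, Ascl2 and Neurog3 were called higher, with 435 of all genes called. On all 11 libraries neither was called, at 0.65 (SE 0.70) for Ascl2 and 0.57 (SE 0.43) for Neurog3.

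In the neighbouring TGF-beta and activin branch 1 of 10 tested genes was called, against 3.05% of all genes, with a median log2 fold change of -0.14. The called gene, the ligand Tgfb3, had 0 to 0.103 CPM in late libraries, below 3 counts in each, against 0.0511 to 4.33 CPM in early libraries (adjusted p = 0.0447 in edgeR's quasi-likelihood test). It passed the low-count filter only through the early libraries where it was high, and did not pass without passage 2 of mouse_283, so its call is given as a description. The receptor Tgfbr1 had a log2 fold change of 0.56 (SE 0.27) without a call, 0.18 (SE 0.16) without passages 3 and 4 of mouse_283, and was called at 0.85 (adjusted p = 0.0223) without passage 2 of mouse_283. Of 8 villus tip genes, whose enterocyte programme BMP signalling supports, 3 fell in late libraries, against 2.34% of all genes: Apoa1 at 135 ± 18.8 CPM in late and 373 ± 236 CPM in early libraries (adjusted p = 0.0291), Apoa4 at 155 ± 45.5 CPM in late and 342 ± 114 CPM in early libraries (adjusted p = 0.0327), and their regulator Creb3l3 at 40.8 ± 12.5 CPM in late and 99.8 ± 43.4 CPM in early libraries (adjusted p = 0.0469). The other 5 were not called on all 11 libraries, with log2 fold changes of 0.71 for Klf4, 0.48 for Egfr, 0.10 for Slc28a2, -0.48 for Ada and -0.58 for Nt5e. Of these, Nt5e was called lower without passages 3 and 4 of mouse_283, against 4.76% of all genes. Klf4 was called higher without a low-count filter, against 7.74%, and Egfr higher without passage 2 of mouse_283, against 34.7%. The median of the 8 was -0.53, beside -0.02 for all genes tested.

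The 5 calls on all 11 libraries named above, outside the members, were each lost in most fits that left out 1 library. Neurod1 kept its call in 3 of 11 fits that left out a library (passage 13 of mouse_285, passages 2 and 3 of mouse_283), Apoa1 in 4 (passages 2, 3 and 4 of mouse_283, passage 2 of mouse_285), Apoa4 in 5 (these 4 and passage 13 of mouse_285) and Creb3l3 in 2 (passages 2 and 4 of mouse_283), with a highest adjusted p of 0.0864 for Neurod1, 0.0939 for Apoa1, 0.105 for Apoa4 and 0.145 for Creb3l3. Tgfb3 passed the low-count filter in 9 such fits and kept its call in 2 of them (passage 11 of mouse_285, passage 3 of mouse_283), with a highest adjusted p of 0.169. With GC and length offsets Creb3l3 lost its call (adjusted p = 0.0637), and with passage number in place of stage Neurod1 (0.0735), Apoa4 (0.0867) and Creb3l3 (0.093) did.

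**Figure D5:**
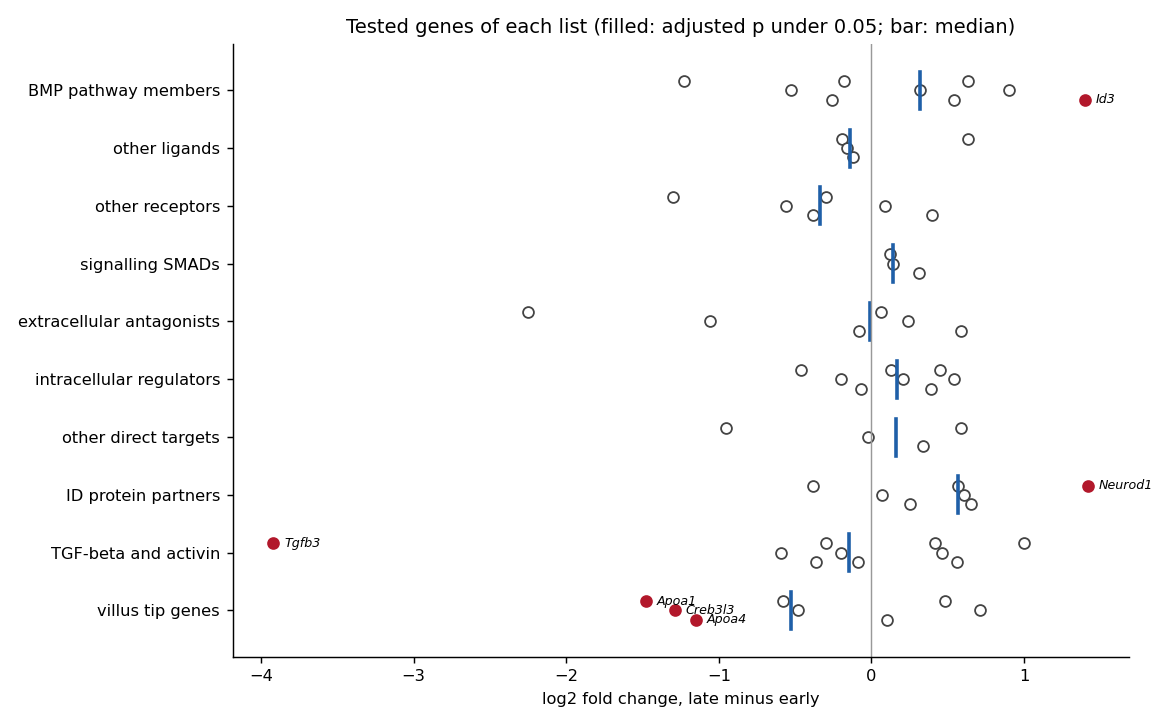
Log2 fold change, late minus early (x axis), of every tested gene in the members and in 9 lists of related genes (y axis), with filled points for an adjusted p under 0.05 and a bar at the median of each list. Id3 and Neurod1 are the filled points above 0, and Tgfb3, Apoa1, Creb3l3 and Apoa4 those below 0.

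The genes outside the members whose log2 CPM followed that of Id1 most closely over the 11 libraries were Wrnip1 (Pearson's r = 0.96), Akr1c13 (0.94), Klk1 (0.94), Lmtk3 (0.91) and Cpne2 (0.90), beside 0.91 for Id3 and 0.34 for Id2. After the mean of each stage and animal was taken away, they were Ormdl3, Gstm7 and Emc3 (0.99 each) and Rilpl2 and Timm23 (0.98 each), beside 0.78 for Id3 and -0.63 for Id2, and none of the first 5 was among them. These values describe 11 libraries that share 2 animals and, in passages 3 and 4 of mouse_283, a trend with GC content.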

How the data were processed

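Total RNA of 11 organoid cultures was sequenced. Per the submitters' processing notes, Trimmomatic and STAR were used with mouse build mm9; versions and the annotation release are not given in the sources used here. The authors deposited raw read counts per gene. The first strand column held 50% to 50.2% of stranded reads, so the unstranded counts were used, and the 4 summary lines of each table were left out. Passage numbers come from sample titles, which were 1 lower than those in the deposited tables' names. Of 37310 identifiers, 32620 matched a symbol. No libraries were duplicates (smallest chi-square per degree of freedom 15.1).

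In R 4.3.3, edgeR 4.0.16 was run with filterByExpr by stage and animal (14172 genes), TMM scaling and its quasi-likelihood F test, two-sided, with animal and stage in the model and Benjamini-Hochberg adjustment at 0.05. The SE was the log2 fold change divided by the square root of F. The animal block pairs libraries of the same mouse. CPM values are TMM-normalised. DESeq2 1.42.0, RLE and upper-quartile scaling, no low-count filter, no animal block, passage number, GC and length offsets (known for 96.7% of tested genes, annotation of build GRCm38), leaving out passages 3 and 4 of mouse_283, and leaving out each library were alternatives. The procedure was tested on simulated data. Named were all 10 members and, from each list of related genes, those called, otherwise up to 3 with the smallest p and at least 1 CPM, and the 5 genes most like Id1; some genes that this rule names are not reported here. The members and lists were chosen with earlier results of these data known. The libraries' replicates are passages of 2 animals. The 95% intervals are approximate: they use a normal quantile times the SE of the fit, and are narrower than the F test implies. Limits from a count of 0 or 3 cover counting error only.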

Additional observations from a re-analysis of the deposited data

Results flagged for a closer look

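Late and early libraries were searched, in 69 groups, for a library far from the rest. In 8 of these groups 1 library stood apart by Dixon's criterion at 95%, computed on CPM. The rate of about 1 in 20 from chance holds for normally distributed values. CPM values are not logged and can lean to the high side, so the 8 groups are not read against that rate. All libraries that stood apart were early, and all were the highest of their group. In passage 2 of mouse_283 these were Bmp4 at 0.427 CPM with the next library at 0, Bmp8b at 15.9 CPM with the next at 8.09, and Tgfb3 at 4.33 CPM with the next at 1.26. In passage 3 of mouse_283 they were Id1 at 23.6 CPM with the next at 11.5, Nbl1 at 13.9 CPM with the next at 6.94, and Apoa1 at 780.5 CPM with the next at 343. In passage 4 of mouse_283 they were Atoh8 at 3.03 CPM with the next at 0.671 and Bambi at 5.23 CPM with the next at 3. Bmp4 had no read in the other early libraries, so its gap filled the whole range by construction.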

How the results depend on the processing

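The number of members called in late against early passages was 1, and 4 with DESeq2, 3 without a low-count filter, 3 without passages 3 and 4 of mouse_283 and 2 with GC and length offsets. It stayed at 1 with RLE or upper-quartile scaling, with passage number and without the animal block (no replicate block). Leaving out each library gave 0 to 5, the highest without passage 2 of mouse_283. Without passage 2 of mouse_283 the number of all genes called was 4872, against 432 in the full fit and 173 to 435 without any other library. Within mouse_283 the number of members called was 0, and 1 with DESeq2 or upper-quartile scaling (Id3). It was 2 without a filter (Id3, Bmpr1a), 2 with offsets (Id1, Id3) and 0 to 6 on leaving out a library. The highest was without its passage 2, where 7694 of all genes were called within mouse_283. The members called in that fit were Bmp2, Bmpr1a, Bmpr2, Id3 and Smad7, higher in late, and Smad6, lower. Without its passages 3 and 4, passage 2 was the only early library of mouse_283, so no count within mouse_283 is given for that fit. Of all genes 736 were called within mouse_283 with DESeq2, 211 with upper-quartile scaling, 1446 without a filter and 603 with offsets, against 201 in the full fit. Within mouse_285 the number of members called was 0, and 1 (Id1) without passages 3 and 4 of mouse_283, where 317 of all genes were called. The stage by animal difference called 0 members, and 0 to 3 on leaving out a library, the highest without passage 2 of mouse_283. In that fit it called 2314 of all genes, against 0 in the full fit. Over all 18 alternatives with a stage term Id3 had log2 fold changes of 1.24 to 1.72 and was called in 11, and Id1 had 0.73 to 1.25 and was called in 6. The log2 fold change changed sign without passages 3 and 4 of mouse_283 for Bmp2 (-0.19), Bmp7 (0.30), Acvr2a (-0.15), Smad1 (-0.01), Smad4 (-0.18) and Bambi (0.20), and with offsets for Bmp7 (0.14), Smad5 (-0.11) and Tcf3 (0.02). On leaving out 1 library it did so for Bmpr2 (range -0.50 to 0.47), Smad7 (-0.38 to 0.10), Bmp7 (-0.26 to 0.06), Smad4 (-0.00 to 0.38), Bambi (-0.22 to 0.18) and Atoh8 (-0.14 to 1.32). The causes were not tested. Low counts limit Smad6 (11 to 64 reads per library) and Bmp4.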
